A study of Mus musculus with 18 samples.

Results

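The A20 complex and the mRNA-decay feedback inhibitors were followed in mouse eosinophils through 10 genes: Tnfaip3, Tnip1, Tnip2, Tnip3, Zfp36, Zfp36l1, Zfp36l2, Zc3h12a, Zc3h12c and Rc3h1. The genes were taken by name, as those whose Ensembl identifier maps to one of these symbols. They are 10 of the 55029 genes listed for 12 of the libraries and of the 54232 listed for the other 6.

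Signals from Toll-like and cytokine receptors travel to NF-κB along ubiquitin chains. A20, the protein of Tnfaip3, edits and binds these chains to stop the signal, and the ABIN proteins of Tnip1, Tnip2 and Tnip3 are its ubiquitin-binding partners. Another brake acts on the mRNAs that inflammatory signals induce: tristetraprolin (TTP) and its relatives bind AU-rich elements, Regnases and Roquin recognise stem-loops, and these mRNAs are then degraded.

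RNA was sequenced in 18 libraries of eosinophils, with the strain labelled C57BL/6, to ask how bacterial, interferon and type 2 signals change these cells. The eosinophils were washed from the peritoneal cavity of NJ.1638 mice, whose Il5 transgene is driven in T cells and raises eosinophil numbers, and T and B cells were removed with beads carrying anti-Thy1.2 and anti-B220. All cells were kept in DMEM with fetal calf serum for less than a day, either unstimulated (libraries a, b and c, and d, e and f) or with heat-inactivated E. coli, IFN-γ, IFN-γ and E. coli together, or IL-4 (libraries 1, 2 and 3 of each). The study calls the libraries biological replicates, but neither it nor the labels say whether those of a group come from separate animals, so the p-values measure the spread between these libraries.

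The files fall into 2 layouts. Unstimulated a to c, E. coli, IFN-γ and the joint stimulus share one, and unstimulated d to f and IL-4 share the other. Counts on genes were 1562034 to 2419241 per library in unstimulated a to c, 1980073 to 2734041 with E. coli, 1654831 to 2006059 with IFN-γ and 1523808 to 1970637 with IFN-γ and E. coli. They were 3625036 to 6482289 in unstimulated d to f and 3827767 to 5909700 with IL-4. No gene exceeded 4095 counts in the 12 libraries, just under the 4096 molecules that identifiers of 6 bases can tell apart, whereas counts reached 191131 in the other 6. The layouts may therefore not count in one unit, so unstimulated a to c serve as controls for the first 3 stimuli and d to f for IL-4.

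Levels are given in CPM, the count relative to the library's total over tested genes after TMM scaling, and 3 counts, taken as the floor of what can be told from 0, equal 1.00 to 2.19 CPM on this scale in the 12 libraries and 0.497 to 0.833 CPM in the other 6, for counting error only. A gene is called where the quasi-likelihood test of edgeR gave a p under 0.05 after Benjamini-Hochberg adjustment over all genes tested, and standard errors (SE) and intervals of log2 fold changes are approximate. All 10 genes passed the filter on low counts in both layouts. Unstimulated library e stood apart: the chi-square per gene was 23.7 between d and e and 22.0 between e and f, against 7.86 between d and f. Changes with IL-4 are therefore given with and without it. In the other layout E. coli 3 was the farthest of its group (3.76 and 4.6, against 1.64 between E. coli 1 and 2), as was library 3 of both agents (6.04 and 5.02, against 2.66) and unstimulated b (4.58 and 4.50, against 2.49 between a and c). Calls of the 10 genes lost without any of these 3 are given with their values.

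Eosinophil markers were the most abundant of 8 marker lists in every library. Their summed level was 3842 to 5139 CPM in unstimulated a to c, 3117 to 3533 with E. coli, 3605 to 4446 with IFN-γ and 2893 to 3275 with IFN-γ and E. coli. Ccr3 and Alox15 led, but their counts reached 3576 and 3732, near the highest count of 4095 in the 12 libraries. Whether that limit lowers the sums or alters their order was not tested. It was 5173 to 6002 CPM in unstimulated d to f and 5031 to 5234 with IL-4, led by Alox15, and of the 10 markers tested there 4 were higher and 1 lower with IL-4 (median log2 fold change 0.31), as many as without library e. In the 12 libraries 4 of the 10 eosinophil markers were too low to test, and of the 6 tested 2, 4 and 4 were lower with E. coli, IFN-γ and the joint stimulus, and 1 was higher with E. coli and with the joint stimulus. Prg3 had at most 3 counts and Epx at most 4 in any of the 12 libraries, and Ear1 and Ear2 at most 12 and 9.

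Markers of other cells moved with the stimuli. Mast cell and basophil markers summed to 24.7 to 34.7 CPM in unstimulated a to c, 134 to 209.8 with E. coli, 170.0 to 199 with IFN-γ and 535 to 561 with IFN-γ and E. coli, mostly Hdc, with Mcpt8 at 0 in all 12 libraries, and of 3 tested markers 1, 2 and 3 were higher. B cell markers, led by Ighm, summed to 122 to 225 CPM unstimulated, 44.1 to 80.0 with E. coli (5 of 5 tested lower), 62.8 to 102 with IFN-γ (4 of 5 lower) and 130.0 to 143 with both agents. Macrophage markers, led by Csf1r, summed to 974 to 1106 CPM unstimulated, 629 to 1015 with E. coli (of 9 tested 3 lower), 1472 to 1561 with IFN-γ (4 higher, 2 lower) and 1310.2 to 1676 with both (3 higher, 1 lower). Neutrophil markers, led by Retnlg, summed to 918 to 1247, 744 to 872, 943 to 987 and 589 to 657 CPM in the same order (of 4 tested, 1 higher and 1 lower, 2 and 1, and 2 and 2 with the stimuli), with Ltf, Mpo, Elane and Ngp at 3 counts or fewer in the 12 libraries. Dendritic cell markers, led by Ccr7, summed to 21.2 to 25.4, 8.16 to 16.3, 24.2 to 39.2 and 27.0 to 42.7 CPM, and the 1 tested, Ccr7, was lower with E. coli (-1.60, log2) and higher with both agents (0.87). Platelet and erythroid markers, led by Pf4, summed to 430.3 to 607, 467 to 704, 442 to 486 and 511 to 686 CPM, and of 6 tested 1 was higher with E. coli, 1 higher and 1 lower with IFN-γ, and 4 higher and 1 lower with both (median log2 fold changes 0.37, 0.82 and 1.23). With E. coli the sums of macrophage and of platelet and erythroid markers were highest in E. coli 3, at 1015 and 704 CPM, against 697 and 629, and 476 and 467, in E. coli 1 and 2. T and NK cell markers stayed under 10 CPM in sum in all 18 libraries, with Cd3e, Cd3g, Cd4 and Cd8a at 3 counts or fewer. The part of other cells in the results for the 10 genes was not tested, and in bulk RNA fewer cells of a type and less RNA per cell cannot be told apart.

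**Figure D1:**
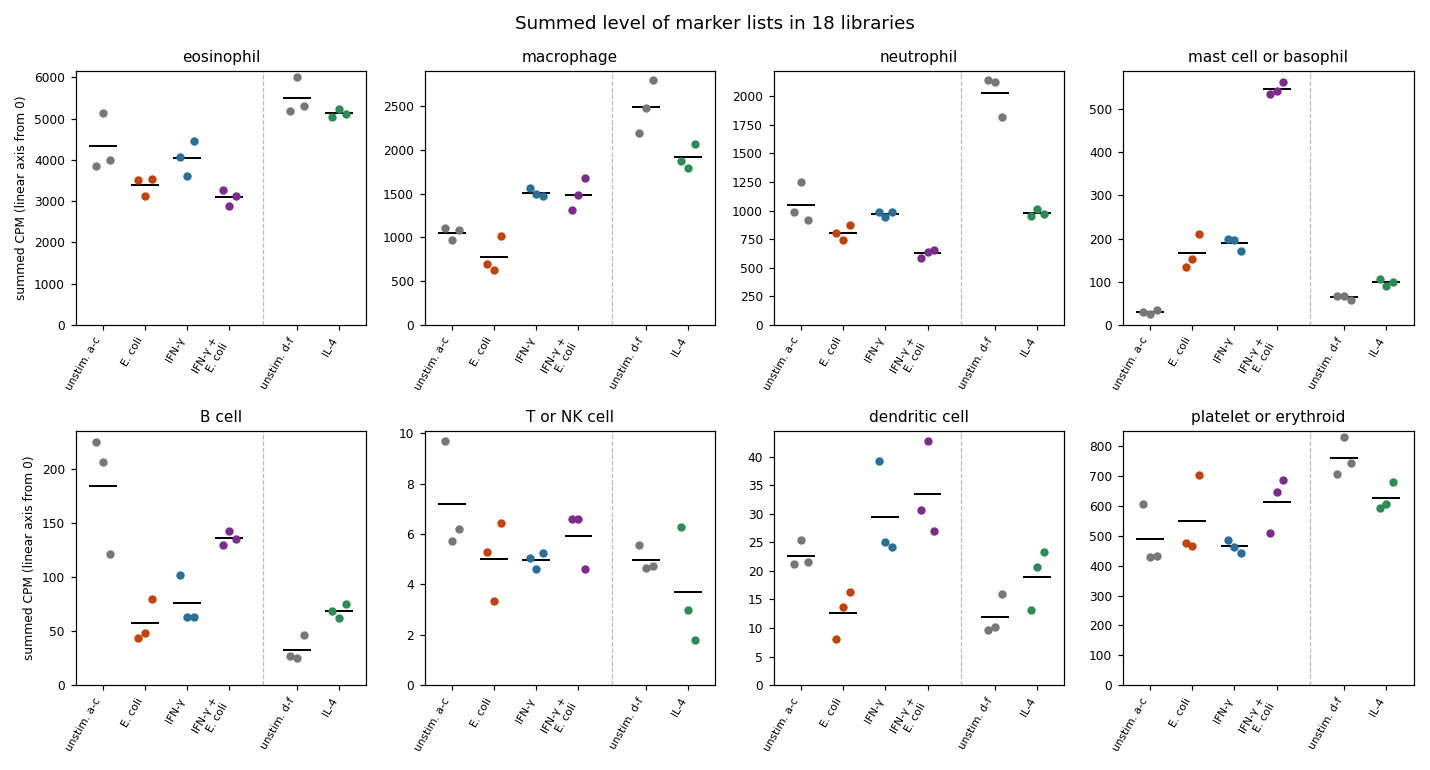
Summed level of 8 lists of cell type markers (CPM, linear axis from 0) in each of the 18 libraries; points are libraries, black bars are group means of 3, and a dashed line parts the file layouts. Eosinophil markers sum to 2893 to 3275 CPM in their lowest group, and T or NK cell markers are under 10 CPM everywhere.

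With E. coli a larger share of the 10 negative regulators than of all genes was called higher. With IFN-γ alone their share was near that of all genes. Whether the shares differ between the stimuli was not tested. With E. coli 6 of the 10 genes were higher and 1 was lower, beside 13.5% higher and 16.7% lower of the 9883 genes tested, and without E. coli 3 the counts were 5 and 1. With IFN-γ 2 were higher, Tnfaip3 and Zc3h12c, beside 15.6% of all genes (16% were lower). At an unadjusted p under 0.05 the count was 3. Here and below, counts at an unadjusted p have no share of all genes beside them and are not read against one. With IFN-γ and E. coli 7 were higher, beside 23.9% of all genes (25.2% were lower), and 7 also without library 3 of both agents. The median log2 fold change of the 10 genes was 1.02 for E. coli, 0.29 for IFN-γ and 1.28 for the joint stimulus, and that of all genes -0.02, -0.03 and -0.04. These comparisons share unstimulated libraries a to c.

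**Figure D2:**
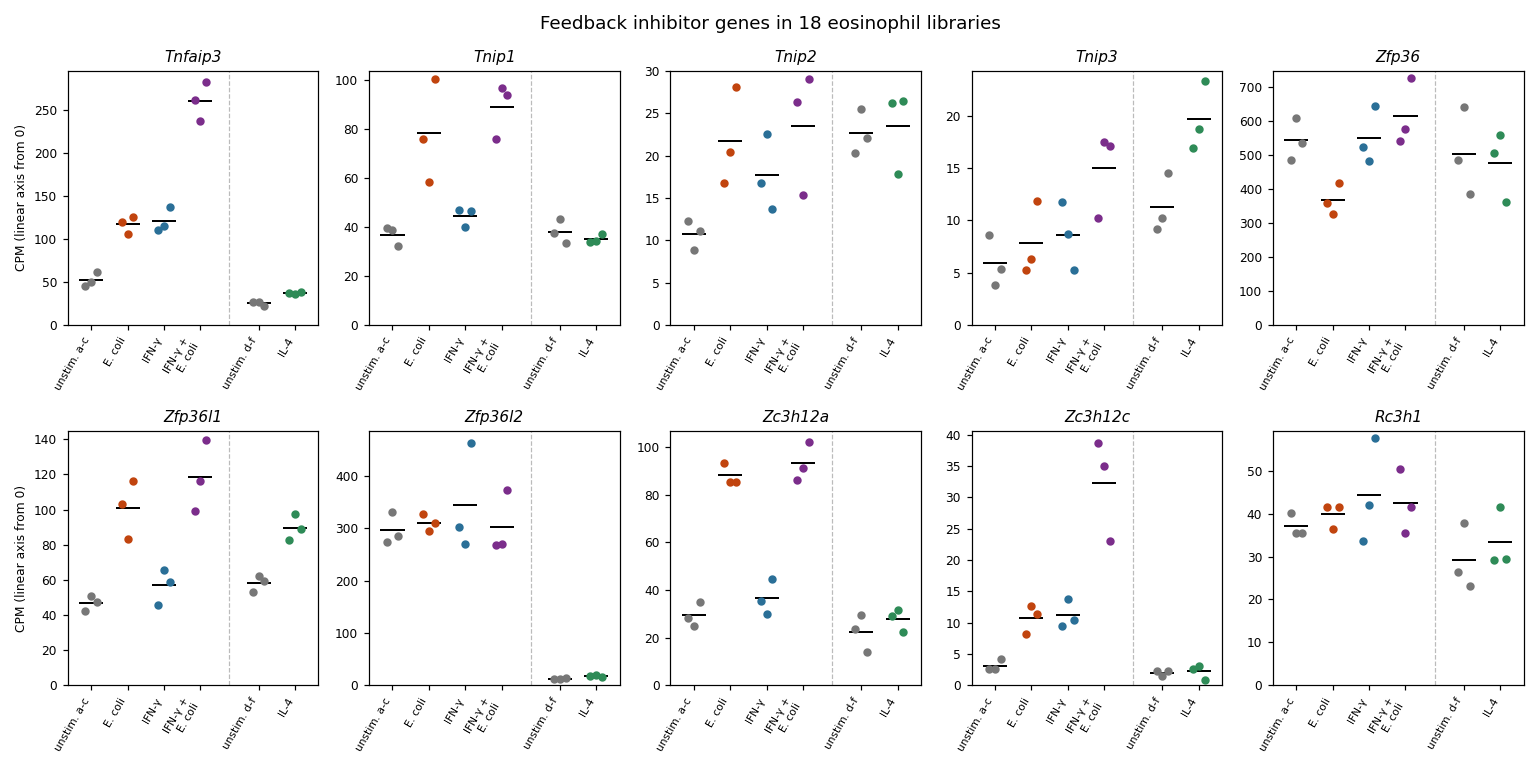
Level of each of the 10 genes (CPM, linear axis from 0, scaled for each gene) in the 18 libraries; points are libraries, black bars are group means of 3, and a dashed line parts the file layouts. All 3 libraries with IFN-γ and E. coli lie above the other 9 of their layout for Tnfaip3 and Zc3h12c, and all 3 with E. coli lie below the other 9 for Zfp36.

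Tnfaip3 (ENSMUSG00000019850, chromosome 10, 19000910 to 19015657 on GRCm38) encodes A20, the ubiquitin-editing enzyme at the centre of the complex. It measured 45.1, 50.1 and 61.9 CPM in unstimulated a, b and c, and 119.9, 106 and 125 CPM with E. coli. With IFN-γ it measured 110.3, 115 and 137 CPM, and with IFN-γ and E. coli 261, 237 and 282 CPM. All 9 stimulated libraries lay above the unstimulated ones, the libraries with both agents lay above all others, and E. coli and IFN-γ overlapped. Tnfaip3 rose 2.22-fold with E. coli, by 1.15 (log2, SE 0.14, adjusted p = 3.88e-06), and 2.30-fold with IFN-γ, by 1.20 (log2, SE 0.14, adjusted p = 2.50e-06). Both agents together raised it 4.96-fold, by 2.31 (log2, SE 0.14, adjusted p = 1.10e-10). The joint level exceeded that with E. coli by 1.16 (log2, SE 0.13, adjusted p = 8.32e-07) and that with IFN-γ by 1.11 (log2, SE 0.13, adjusted p = 9.46e-06). The joint effect differed from the sum of the log2 effects by -0.04 (interval -0.43 to 0.35, adjusted p = 0.942), a departure that these libraries could not detect.

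Tnip1 (ENSMUSG00000020400, chromosome 11, 54910785 to 54962917) encodes ABIN-1, which binds A20 and ubiquitin chains. Its level was 39.5, 38.7 and 32.2 CPM in unstimulated a, b and c, 75.9, 58.2 and 100.2 CPM with E. coli, 47.0, 40.0 and 46.4 CPM with IFN-γ and 76.0, 96.4 and 93.6 CPM with both. Every library that received E. coli exceeded every library that did not. Tnip1 rose by 1.07 (log2, SE 0.18, adjusted p = 0.000139) with E. coli and by 1.28 (log2, SE 0.18, adjusted p = 1.20e-05) with both agents. In order of level the groups ran from unstimulated over IFN-γ and E. coli to both agents, and only the step from IFN-γ to E. coli passed the test among neighbours (-0.80 for IFN-γ minus E. coli, SE 0.18, adjusted p = 0.00226). IFN-γ and unstimulated libraries did not overlap, but the difference of 0.27 did not pass (adjusted p = 0.306).

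Tnip2 (ENSMUSG00000059866, chromosome 5, 34496087 to 34513991) encodes ABIN-2, a partner of A20 that also stabilises the kinase TPL-2. It measured 12.3, 8.87 and 11.2 CPM unstimulated, 16.7, 20.4 and 28.1 CPM with E. coli, 16.8, 22.6 and 13.7 CPM with IFN-γ and 26.3, 15.3 and 29.0 CPM with both. All 9 stimulated libraries exceeded the 3 unstimulated ones, and the stimulated groups overlapped one another, with no called difference between neighbours among them. Tnip2 rose by 0.96 (log2, SE 0.27, adjusted p = 0.0109) with E. coli and by 1.07 (log2, SE 0.29, adjusted p = 0.00430) with both agents. The call with E. coli was lost without E. coli 3 (adjusted p = 0.0502), and its adjusted p ran from 0.000672 to 0.0502 over 18 alternatives. With IFN-γ the difference was 0.70 (SE 0.29) and did not pass (adjusted p = 0.0741). It passed without the low-count filter (0.0412), in a fit of the 6 compared libraries (0.0489) and without library 2 (0.0491) or 3 (0.0475) of the joint stimulus, with adjusted p from 0.0412 to 0.273 over 18 alternatives.

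Tnip3 (ENSMUSG00000044162, chromosome 6, 65525313 to 65634040) encodes ABIN-3, the ABIN that is known to be inducible in many cells. It rested on 6 to 32 counts per library here, and measured 8.57, 3.8 and 5.37 CPM unstimulated and 10.2, 17.5 and 17.1 CPM with IFN-γ and E. coli. With E. coli alone it measured 5.30, 6.35 and 11.8 CPM and with IFN-γ alone 11.8, 8.71 and 5.23 CPM. The libraries with both agents lay above the unstimulated ones, whereas those with a single agent overlapped them. Tnip3 rose by 1.28 (log2, SE 0.37, adjusted p = 0.00779) with both agents. The values with E. coli (0.29, interval -0.52 to 1.11) and with IFN-γ (0.48, interval -0.36 to 1.32) did not pass (adjusted p = 0.616 and 0.385), and without E. coli 3 the former was -0.07. The joint level exceeded that with E. coli by 0.99 (log2, SE 0.35, adjusted p = 0.0387), although the groups overlapped. This call was lost without E. coli 1 (0.150) or 2 (0.135) and without library 2 (0.151) or 3 (0.0935) of the joint stimulus, and with DESeq2 (0.0883), and its adjusted p ran from 0.00888 to 0.151 over 19 alternatives.

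Zfp36 (ENSMUSG00000044786, chromosome 7, 28376784 to 28380253) encodes TTP, which binds AU-rich elements and recruits deadenylases. It measured 484, 609.7 and 536 CPM in unstimulated a, b and c, and 359, 326 and 417 CPM with E. coli. With IFN-γ it measured 525, 481 and 644 CPM, and with both agents 540.5, 578 and 728 CPM. The 3 libraries with E. coli alone were the lowest of the 12, and the other groups overlapped. Zfp36 fell by 0.56 with E. coli (log2, SE 0.14, adjusted p = 0.00504) and was the only one of the 10 genes to be called lower with any stimulus. With IFN-γ and E. coli it differed from unstimulated cells by 0.18 (interval -0.11 to 0.48, adjusted p = 0.301), and it was higher than with E. coli alone by 0.75 (log2, SE 0.14, adjusted p = 0.000469). Zfp36 was the 1 gene of the 10 whose joint effect departed from the sum of the log2 effects, beside 4.62% of all genes: it was higher by 0.73 (log2, SE 0.20, adjusted p = 0.0418). The departure was lost in 9 of the 12 fits that left out a library: adjusted p was 0.0510 without a, 0.109 without b, 0.0747 without c, 0.113 and 0.141 without E. coli 1 and 2, 0.117 and 0.151 without IFN-γ 1 and 2, and 0.0712 and 0.101 without libraries 2 and 3 of both agents. With DESeq2's size factors it was 0.0508, and it ran from 0.0106 to 0.151 over 17 alternatives. All genes called for the interaction numbered 457, and 266 without a, 286 and 270 without E. coli 1 and 2, and 294 without library 2 of both agents.

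Zfp36l1 (ENSMUSG00000021127, chromosome 12, 80107754 to 80113013), a relative of TTP with the same kind of zinc fingers, measured 42.1, 50.7 and 47.5 CPM unstimulated, 103, 83.3 and 117 CPM with E. coli, 45.9, 65.6 and 58.9 CPM with IFN-γ and 99.3, 116 and 139.8 CPM with both. As for Tnip1, all 6 libraries that received E. coli lay above the 6 that did not. Zfp36l1 rose by 1.11 (log2, SE 0.16, adjusted p = 3.84e-05) with E. coli and by 1.35 (log2, SE 0.17, adjusted p = 1.97e-06) with both agents. With E. coli alone it thus moved up where Zfp36 moved down. With IFN-γ alone the difference was 0.29 (interval -0.08 to 0.66, adjusted p = 0.222). In the order unstimulated, IFN-γ, E. coli, both agents, the neighbours IFN-γ and E. coli differed (-0.82 for IFN-γ minus E. coli, adjusted p = 0.000807) and the other neighbours were not called apart.

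Zfp36l2 (ENSMUSG00000045817, chromosome 17, 84183931 to 84187947), the third TTP relative, measured 273, 331 and 285 CPM unstimulated, 326, 296 and 310.1 CPM with E. coli, 303, 269.6 and 463 CPM with IFN-γ and 267, 269 and 373 CPM with both. The groups overlapped throughout, and the highest value was IFN-γ 3. No comparison called it, and the intervals were -0.28 to 0.42, -0.13 to 0.57 and -0.32 to 0.39 in the same order of stimuli.

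Exons of Zfp36, Zfp36l1 and Zfp36l2, and of Zc3h12c among the Regnases, overlap a gene transcribed from the other strand, and reads of such a pair cannot be told apart without a record of the strand. A search for near-identical copies among annotated transcripts (at least 95% over 200 bases) found none for 9 of the genes, and for Zfp36l1 the overlapping antisense gene Gm26669 (1491 bases at 100%). Copies outside the annotated transcripts were not searched for.

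Zc3h12a (ENSMUSG00000042677, chromosome 4, 125118423 to 125127840) encodes Regnase-1, an endonuclease that cuts stem-loops in the mRNAs of cytokines. It measured 28.3, 24.7 and 35.1 CPM unstimulated and 93.4, 85.3 and 85.4 CPM with E. coli. With IFN-γ it measured 35.3, 29.7 and 44.5 CPM, and with both agents 86.2, 91.0 and 102 CPM. Again the 6 libraries with E. coli lay above the 6 without, and IFN-γ overlapped the unstimulated group. Zc3h12a rose 2.96-fold with E. coli, by 1.56 (log2, SE 0.15, adjusted p = 3.90e-07), and 3.13-fold with both agents, by 1.65 (log2, SE 0.16, adjusted p = 9.04e-08). With IFN-γ the difference was 0.28 (interval -0.08 to 0.65, adjusted p = 0.234), and IFN-γ minus E. coli was -1.28 (log2, SE 0.16, adjusted p = 3.76e-06). Adding IFN-γ to E. coli gave a further 0.08 (interval -0.22 to 0.38), which did not pass.

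Zc3h12c (ENSMUSG00000035164, chromosome 9, 52111344 to 52168572) encodes Regnase-3, an endonuclease of the same family. Its counts were 7, 4 and 10 in unstimulated a, b and c, or 2.61, 2.54 and 4.13 CPM. With E. coli it measured 8.16, 12.7 and 11.4 CPM, with IFN-γ 9.52, 13.8 and 10.5 CPM and with both agents 38.7, 35.1 and 23.1 CPM. The stimulated libraries all lay above the unstimulated ones, E. coli and IFN-γ overlapped, and the joint stimulus lay above both. Zc3h12c had the largest fold changes of the 10 genes: 3.39-fold with E. coli, 1.76 (log2, SE 0.35, adjusted p = 0.000718); 3.57-fold with IFN-γ, 1.83 (log2, SE 0.36, adjusted p = 0.000701); and 10.1-fold with both, 3.34 (log2, SE 0.31, adjusted p = 5.79e-08). The joint level exceeded E. coli alone by 1.57 (log2, SE 0.25, adjusted p = 6.65e-05) and IFN-γ alone by 1.5 (log2, SE 0.26, adjusted p = 0.000710). The departure from the sum of the log2 effects was -0.26 (interval -1.17 to 0.64, adjusted p = 0.831) and was not detectable in these libraries.

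Rc3h1 (ENSMUSG00000040423, chromosome 1, 160906418 to 160974978) encodes Roquin-1, which binds stem-loops in mRNAs and recruits the deadenylation machinery. It measured 40.2, 35.5 and 35.5 CPM unstimulated, 41.6, 36.4 and 41.5 CPM with E. coli, 33.6, 42.0 and 57.5 CPM with IFN-γ and 50.4, 35.6 and 41.5 CPM with both. All groups overlapped and no comparison called it, with intervals of -0.28 to 0.47, -0.14 to 0.63 and -0.21 to 0.57 against unstimulated cells.

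The agents were also compared directly with each other. Against E. coli alone the joint stimulus was higher for 4 of the 10 genes (Tnfaip3, Tnip3, Zfp36 and Zc3h12c), or 3 without library 3 of both agents, beside 17.5% higher and 15.3% lower of all genes. Against IFN-γ alone it was higher for 5 (Tnfaip3, Tnip1, Zfp36l1, Zc3h12a and Zc3h12c), beside 6.25% higher and 5.98% lower. IFN-γ minus E. coli was positive for Zfp36 and negative for Tnip1, Zfp36l1 and Zc3h12a, which makes 1 gene higher and 3 lower, beside 14.1% and 11.5% of all genes. Tnfaip3 and Zc3h12c did not differ between these agents by more than their spread (0.05, interval -0.23 to 0.32, and 0.07, interval -0.52 to 0.67). The medians of the 10 genes in these comparisons were 0.22, 0.90 and 0.06, and those of all genes -0.02, 0.01 and -0.02. All genes higher and lower against IFN-γ numbered 618 and 591, but 374 and 366 without IFN-γ 1, and the lower ones 336 without library 2 of both agents.

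**Figure D3:**
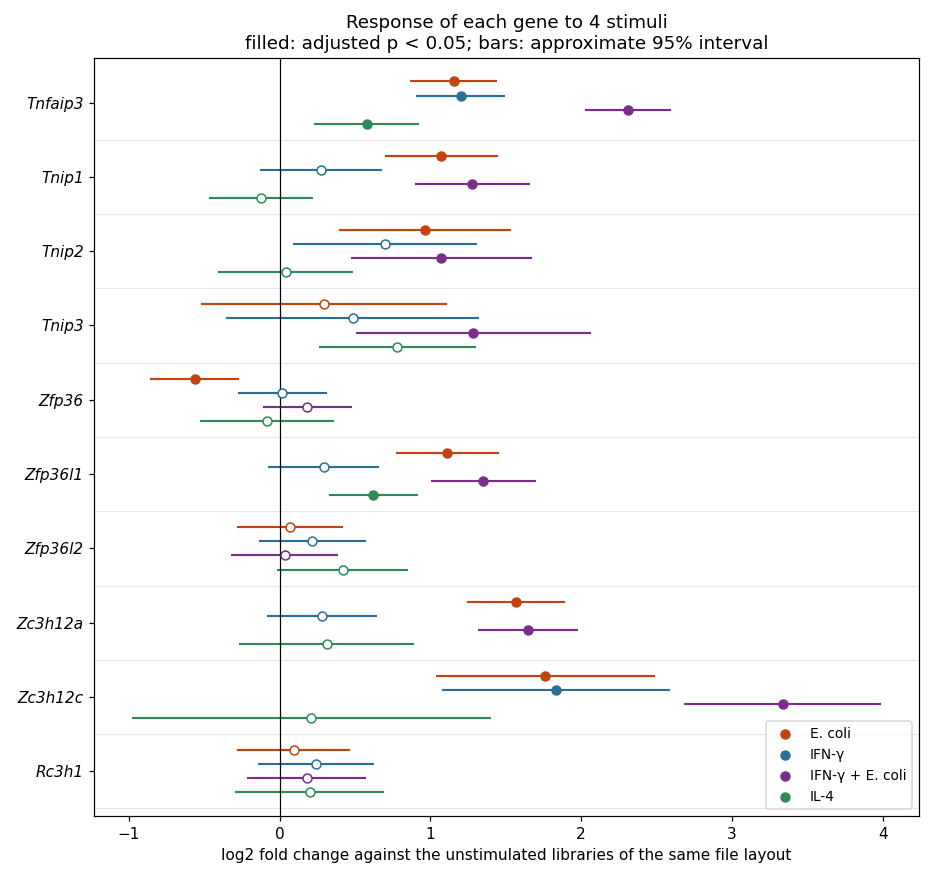
Log2 fold change of each of the 10 genes with each of 4 stimuli against the unstimulated libraries of the same file layout (n = 3 libraries a group); bars are approximate 95% intervals, and filled points passed the test. Zc3h12c reaches 3.34 with IFN-γ and E. coli, and Zfp36 is at -0.56 with E. coli.

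IL-4, a type 2 cytokine, raised 2 of the 10 genes, Tnfaip3 and Zfp36l1, beside 5.97% higher and 4.35% lower of the 10556 genes tested. At an unadjusted p under 0.05, 3 were higher, again with no share of all genes at that threshold. The median log2 fold change of the 10 genes was 0.26, beside 0.00 for all genes. Without library e Tnfaip3 and Zfp36l1 were called higher as well, beside 7.45% higher and 5.34% lower of 10893 genes, and the medians were 0.42 and 0.01. All genes higher and lower numbered 630 and 459, and 812 and 582 without e, but 312, 311 and 318 higher and 171, 184 and 197 lower without IL-4 1, 2 and 3. Macrophage markers, led by C1qc, summed to 2189.9 to 2795 CPM in unstimulated d to f and 1792 to 2068 with IL-4 (3 of 9 tested lower), and neutrophil markers to 1819 to 2143 and 954 to 1012 (1 of 5 lower). The neutrophil sum is mostly Retnlg, at a mean of 1305 CPM over the 6 libraries, and the median log2 fold change of the 5 tested neutrophil markers was 0.38, or 0.17 without e. B cell markers summed to 25.3 to 46.8 and 62.5 to 74.9 CPM (3 of 4 higher), mast cell and basophil markers to 57 to 67.5 and 90.4 to 107 (1 of 3 higher), dendritic cell markers to 9.72 to 16 and 13.1 to 23.3 (1 of 3 higher), and platelet and erythroid markers to 706 to 829.9 and 593 to 679 (2 of 6 lower). Without e 1 of 5 neutrophil and 1 of 6 platelet or erythroid markers were lower and 1 of each was higher, 1 of 4 mast cell or basophil markers was higher, the dendritic cell marker was no longer called, and the macrophage and B cell counts were 3 of 9 lower and 3 of 4 higher again. Their part in the results was not tested.

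Tnfaip3 measured 26.7, 26.7 and 21.7 CPM in unstimulated d, e and f, and 37.3, 36.2 and 38.4 CPM with IL-4. The groups did not overlap. It rose 1.49-fold, by 0.58 (log2, SE 0.16, adjusted p = 0.0415), and by 0.63 (adjusted p = 0.0234) without library e. The call was lost without d (0.0533), f (0.123), IL-4 1 (0.137), IL-4 2 (0.133) or IL-4 3 (0.131), without the low-count filter (0.0777) and with DESeq2 (0.0864), and its adjusted p ran from 0.0234 to 0.137 over 10 alternatives.

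Zfp36l1 measured 53.0, 62.0 and 59.5 CPM in unstimulated d, e and f, and 82.9, 97.2 and 88.9 CPM with IL-4. All 3 IL-4 libraries were above all 3 unstimulated ones. It rose 1.54-fold, by 0.62 (log2, SE 0.13, adjusted p = 0.0158), and by 0.67 (adjusted p = 0.00301) without library e. This call was lost without IL-4 2 (0.0983) or IL-4 3 (0.0645), and its adjusted p ran from 0.00301 to 0.0983 over 10 alternatives.

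Tnip3 measured 9.16, 10.3 and 14.5 CPM in unstimulated d, e and f, and 16.9, 18.8 and 23.3 CPM with IL-4. The groups did not overlap, and the difference of 0.78 (SE 0.23) did not pass (adjusted p = 0.0622). It passed without f (0.0416) and without the low-count filter (0.0444), with adjusted p from 0.0416 to 0.212 over 10 alternatives, and it was 0.69 (adjusted p = 0.0886) without e. Zfp36l2 measured 11.7, 12.6 and 14.2 CPM in unstimulated d, e and f, and 17.3, 18.8 and 15.3 CPM with IL-4. Its groups did not overlap either, with a difference of 0.42 (interval -0.02 to 0.85, adjusted p = 0.214), or 0.40 (adjusted p = 0.286) without e.

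The other 6 genes overlapped between IL-4 and unstimulated libraries. The share of all genes without overlap was not counted, so the number of genes without it is not read as a result. Tnip1 measured 37.5, 43.4 and 33.4 CPM in unstimulated d, e and f, and 33.9, 34.2 and 37.1 CPM with IL-4. Zc3h12a measured 23.6, 29.5 and 13.8 CPM unstimulated and 29.1, 31.4 and 22.3 CPM with IL-4. For both genes the differences were not called, at -0.12 (interval -0.47 to 0.22) and 0.31 (interval -0.27 to 0.89), or -0.02 and 0.60 without library e. Tnip2 (20.3, 25.5 and 22.1 CPM unstimulated, 26.3, 17.8 and 26.4 CPM with IL-4) and Zfp36 (487, 641 and 387 and 505, 558 and 363 CPM) were not called either, at 0.04 and -0.09, or 0.13 and 0.12 without e. Rc3h1 (26.4, 37.9 and 23.0 and 29.3, 41.5 and 29.6 CPM) was at 0.20, or 0.45 without e. Zc3h12c had 8, 9 and 12 counts unstimulated and 14, 19 and 3 with IL-4. Its interval of -0.98 to 1.4 spans both directions, and a change was not detectable in these libraries. Its difference was 0.21, or 0.03 without e.

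The responses themselves differed in 4 of the 10 genes between IL-4 and E. coli, beside 28.1% of the 10671 genes tested, in 2 between IL-4 and IFN-γ, beside 27.8%, and in 6 between IL-4 and both agents, beside 39.2%. In all of these the difference was negative, so that IL-4 had the lower response. Of all genes tested, 1457, 1572 and 2210 were called with a negative difference, and 1538, 1392 and 1974 with a positive one. For Tnfaip3 the response to IL-4 minus that to IFN-γ and E. coli was -1.79 (SE 0.20, adjusted p = 2.73e-07), and for Zc3h12c it was -3.16 (SE 0.58, adjusted p = 0.000166). For Zfp36l1, which both IL-4 and E. coli raised, the difference of these responses was -0.51 (interval -0.95 to -0.06) and did not pass (adjusted p = 0.0833), but passed without E. coli 2 (0.0389), with adjusted p from 0.0389 to 0.210 over 22 alternatives. Without library e the counts were again 4, 2 and 6, beside 2870, 2799 and 4108 of all genes, which were 2995, 2964 and 4184 with it. Against E. coli, however, Tnfaip3 (0.0581) and Tnip2 (0.0821) no longer passed without e, and Zfp36 (0.67, adjusted p = 0.0351) and Zc3h12c (-1.73, adjusted p = 0.0441) did. In all libraries Zc3h12c was at -1.54 against E. coli and was not called (adjusted p = 0.0545), but it passed under 7 alternatives (adjusted p from 0.0313 to 0.0476). The count against E. coli was 5 with DESeq2's size factors, without genes over 2000 counts or without library 3 of both agents. It was 3 with DESeq2's own test, where Tnip2 was lost (0.0654), and without f, IFN-γ 1 or IL-4 2, and 2 without a, b or E. coli 3. That against IFN-γ was 1 without b, d, f, E. coli 3, IFN-γ 2, IL-4 1, IL-4 3 or library 2 of both agents, and 0 by edgeR without a or IFN-γ 3, while in all libraries it was 2 at an unadjusted p under 0.05 and 1 with DESeq2.

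The 10 genes were also compared by the shape of their pattern over the 12 libraries, as the root-mean-square (RMS) difference of log2 CPM centred on each gene's mean. Tnip1 and Zfp36l1 were the closest pair, at an RMS difference of 0.20. Zfp36l2 and Rc3h1, neither of which was called with any stimulus, followed at 0.22. For Tnip1, Zfp36l1, Zfp36l2 and Rc3h1 the nearest gene outside the 10 was nearer than this partner, at 0.18, 0.15, 0.11 and 0.12.

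Outside the 10 genes, those with the pattern closest to Tnfaip3 were B4galt5, Cd53 and Srxn1 (RMS differences 0.18, 0.18 and 0.19). B4galt5, a galactosyltransferase, was at 75.9 ± 2.45 CPM (SD, n = 3, here and for the levels that follow) unstimulated, 166 ± 12.9 for E. coli, 153 ± 11.3 for IFN-γ and 401 ± 25.7 for the joint stimulus. Closest to Zc3h12c were Abca1, Gm32511 and B4galt5 (0.29, 0.30 and 0.35), and Abca1, a cholesterol exporter, was at 66.5 ± 30.03, 159 ± 6.33, 146 ± 20.9 and 396 ± 30.3 CPM in the same groups. Zc3h12a had Ppfibp2, Rilpl2 and Plaur as its nearest (0.15, 0.21 and 0.25). Plaur, the urokinase receptor, was at 106 ± 7.07, 340.2 ± 12.5, 173 ± 8.81 and 399 ± 34.5 CPM and is also in the list of target mRNAs described further on.

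Promoters were read for the genes because several of them moved together. The RefSeq table (GRCm38.p6, 250 bases before to 50 after each start) holds 11 promoters of 9 of the 10 genes, with 2 each for Tnfaip3 and Zc3h12c and none for Zfp36l2. The κB consensus, searched on both strands, is in promoters of Tnfaip3, Tnip1 and Tnip3, and in 4.51% of all 32851 promoters in the table. Tnfaip3 has 2 matches, Tnip1 has 3 that overlap one another, of which the middle one is shown, and Tnip3 has 1. The capitals mark the match in windows of 30 bases, shown because these 3 genes are among the 7 that were higher with IFN-γ and E. coli. The windows of the other 4 (Tnip2, Zfp36l1, Zc3h12a and Zc3h12c) hold no such match. The matches read:
Tnfaip3, chr10:19015516-19015545, minus strand: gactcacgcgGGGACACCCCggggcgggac
Tnfaip3, chr10:19015403-19015432, minus strand: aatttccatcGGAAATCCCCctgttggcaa
Tnip1, chr11:54962978-54963007, minus strand: tccatcatggGGGAATTCCCctcctgcctc
Tnip3, chr6:65590334-65590363, plus strand: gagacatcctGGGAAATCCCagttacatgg

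The gamma-activated sequence TTCNNNGAA is in the promoters of Tnip1, Tnip2 and Zfp36 and in 8.30% of all promoters. The form that STAT6 prefers, with TTC and GAA 4 bases apart, is in that of Tnfaip3 and in 6.95% of all. The AP-1 motif TGANTCA is in those of Tnfaip3, Zfp36l1 and Rc3h1 and in 7.81% of all. The core of interferon-stimulated response elements (GAAA and GAAA, 2 bases apart) is in none of the 11 windows and in 3.44% of all promoters. One promoter of Tnfaip3 thus holds κB, STAT6 type and AP-1 matches, and the latter pair read:
Tnfaip3, chr10:19015631-19015660, minus strand: agctgattTTCTTCAGAAaagaagctataa
Tnfaip3, chr10:19015528-19015557, minus strand: aaatgcccaggTGACTCAcgcggggacacc
A match is a description of the letters, and binding was not measured.

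The other genes of the pathway were followed in lists, whose counts stand beside 13.5% higher and 16.7% lower of all genes with E. coli, 15.6% and 16% with IFN-γ, 23.9% and 25.2% with both, and 5.97% and 4.35% with IL-4. Of 18 partners of A20 and regulators of ubiquitin chains, 2 were higher and 2 lower with E. coli (median -0.02, all genes -0.02), 8 higher and 1 lower with IFN-γ (median 0.38, all genes -0.03), 11 higher and 1 lower with both (median 0.46, all genes -0.04), and 1 lower with IL-4 (median -0.07, all genes 0.00), or 1 higher and 1 lower without library e (median 0.00, all genes 0.01). The shares higher were 11.1%, 44.4% and 61.1% for the first 3 stimuli, of which the first is under that of all genes. Rnf11, a subunit of the A20 complex, rose from 105 ± 8.63 to 185 ± 4.22 CPM with E. coli (0.81, SE 0.11, adjusted p = 2.55e-05). Ikbkg, the ubiquitin-binding subunit of the IκB kinase, rose from 103 ± 11.5 to 184 ± 19.2 CPM with IFN-γ (0.85, SE 0.13, adjusted p = 3.86e-05) and fell from 135 ± 44.5 to 63.4 ± 6.54 CPM with IL-4 (-1.09, SE 0.21, adjusted p = 0.00883, and 0.0534 without IL-4 3). Without e it was at -0.78, adjusted p = 0.000605. Tnfaip8l2, a negative regulator of innate signals also called TIPE2, fell from 66.4 ± 15.5 to 36.9 ± 4.01 CPM with both agents (-0.84, SE 0.21, adjusted p = 0.00242).

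Of 26 genes of the deadenylation and decapping machinery, on which TTP and Roquin rely, 2 were higher and 2 lower with E. coli (median -0.04), 2 higher and 2 lower with IFN-γ (0.11), 4 higher and 2 lower with both (0.12) and 2 higher with IL-4 (0.20), beside all-gene medians of -0.02, -0.03, -0.04 and 0.00. The shares higher, 7.69%, 7.69% and 15.4% in that order, are under the 13.5%, 15.6% and 23.9% of all genes, and with IL-4 the share was 7.69%, beside 5.97%, or 11.5% (3 genes, median 0.10), beside 7.45%, without e. Cnot7, a deadenylase of the CCR4-NOT complex, rose from 32.0 ± 6.77 to 85.8 ± 5.27 CPM with both agents (1.43, SE 0.18, adjusted p = 1.98e-06). Parn, another deadenylase, fell from 11.7 ± 1.71 to 4.66 ± 1.23 CPM with IFN-γ (-1.28, SE 0.32, adjusted p = 0.00492). With both agents it was called lower too, at 1.46 to 3.84 CPM, around the 1.64 to 2.19 CPM that 3 counts equal in those libraries, so no fold change is given.

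Of 14 tested genes among 17 other regulators of AU-rich and stem-loop decay, 5 were higher and 1 lower with E. coli (median 0.32), 4 higher and 2 lower with IFN-γ (0.30), 9 higher and 1 lower with both (0.49) and 1 lower with IL-4 (-0.16), beside the same all-gene medians. The shares higher were 35.7%, 28.6% and 64.3% with the first 3 stimuli, beside 13.5%, 15.6% and 23.9% of all genes. Mapkapk2, the kinase that phosphorylates TTP, rose from 146 ± 15.2 to 263 ± 26.6 CPM with E. coli (0.85, SE 0.11, adjusted p = 1.32e-05). Malt1, a protease that cleaves Regnase-1, rose from 23.5 ± 7.38 to 71.3 ± 15.2 CPM with both agents (1.57, SE 0.22, adjusted p = 9.51e-06). Dusp1, a phosphatase that ends p38 signalling, fell with E. coli from 180.3 ± 10.1 to 65.0 ± 17.7 CPM (-1.49, SE 0.18, adjusted p = 5.98e-06). Dusp1 was also lower with IFN-γ (-0.94, SE 0.18, adjusted p = 0.000625), with both agents (-0.78, SE 0.18, adjusted p = 0.00159) and with IL-4 (-0.93, SE 0.25, adjusted p = 0.0419). The call with IL-4 was lost without d (0.0837) or IL-4 1 (0.0776), 2 (0.0953) or 3 (0.115), and without e Dusp1 was at -0.85, adjusted p = 0.0256. Without e 1 of 15 tested genes of this list was lower again, with a median of -0.10.

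Of 25 mRNAs known as targets of TTP, Regnase-1 or Roquin, 20 were tested in each layout, with Il12b only in the 12 libraries, Tnfrsf4 only with IL-4, and Il23a, Csf2, Icos and Lif in neither. In the 12 libraries 16 of the 20 were higher with E. coli (median 1.89, all genes -0.02), 13 higher and 1 lower with IFN-γ (median 0.84, all genes -0.03), and 17 higher and 1 lower with both (median 2.85, all genes -0.04). In the other layout 7 of the 20 were higher and 4 lower with IL-4 (median 0.10, all genes 0.00), or 7 higher and 6 lower without e (median 0.25, all genes 0.01). Ccl3, a chemokine, rose from 51.6 ± 2.25 to 552 ± 63 CPM with E. coli (3.41, SE 0.13, adjusted p = 2.33e-12). Cxcl3, a chemokine too, rose from 127 ± 23.0 to 1056 ± 122 CPM with IFN-γ (3.04, SE 0.15, adjusted p = 2.47e-11), and Ptgs2, the inducible cyclooxygenase, from 31.6 ± 8.62 to 1049 ± 126 CPM with both agents (5.01, SE 0.21, adjusted p = 1.04e-12). Il12b, a subunit of IL-12, was below the floor of 3 counts in all unstimulated libraries (0.275 ± 0.477 CPM, at most 0.826). It was at 7.96 ± 7.81 CPM with IFN-γ, where IFN-γ 3 was at the floor (1.96 CPM), and at 18.2 ± 6.32 CPM with both agents. Id1, a transcriptional inhibitor, fell from 238 ± 30.5 to 60.2 ± 8.85 CPM with both (-1.98, SE 0.14, adjusted p = 8.53e-10). With IL-4 Il6 rose from 16.5 ± 3.01 to 77.3 ± 5.89 CPM (2.24, SE 0.17, adjusted p = 7.66e-05; without e 2.11, adjusted p = 1.10e-06), and Cxcl3 fell from 127 ± 10.4 to 46.2 ± 2.71 CPM (-1.46, SE 0.13, adjusted p = 0.000131; without e -1.41, adjusted p = 3.58e-06).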

How the data were processed

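What the authors deposited are whole-number counts per Ensembl gene, not normalized. The methods describe CEL-Seq2 libraries, TopHat2 2.1.0 alignment to GRCm38 and HTSeq 0.6.1 counting; fastp 0.20.1 and STAR 2.7.2a are also named, without saying for which libraries, and whether identifiers were collapsed is not stated. Lines of the files that name no gene were left out.

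R 4.3.3 was used with edgeR 4.0.16 (filterByExpr, TMM, quasi-likelihood test, Benjamini-Hochberg over all genes tested, adjusted p under 0.05, no fold threshold) and DESeq2 1.42.0. Separate models were fitted to the 12 and the 6 libraries of each layout. A model of all 18 libraries, with both unstimulated groups kept apart, compared the response to IL-4 with the others. SEs are the size of the fold change over the root of F, and BLAST 2.17.0 searched for near copies. Symbols matched 98.3% and 99.7% of the listed identifiers.

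The 10 genes and all lists were chosen with earlier results of these data known. Of each pathway list, up to 3 called genes with the largest change in each direction and comparison with unstimulated cells qualified to be named, and some of them are described. Genes of like pattern are the 3 nearest to each of the 3 genes with the widest range of group means. Alternatives were DESeq2's size factors, DESeq2, no low-count filter, a factor of 2, each library left out, the 6 compared libraries alone, the replicate number as a block, genes over 2000 counts left out and, chosen after seeing the data, a correction for identifier collisions. Proteins were not analysed here.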

Additional observations from a re-analysis of the deposited data

Results flagged for a closer look

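For 13 results the test of a difference between 2 effects passed (edgeR's quasi-likelihood test, Benjamini-Hochberg). They are 1 of the 10 genes for the interaction, beside 4.62% of all genes. For IL-4 minus E. coli, IFN-γ and both agents they are 4, 2 and 6, beside 28.1%, 27.8% and 39.2% of all genes. The effect of IFN-γ and E. coli together on Zfp36 was 0.73 above the sum of their log2 effects (adjusted p = 0.0418). This call was lost in 9 of the 12 fits that left out a library.

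The response to IL-4 minus that to E. coli was -0.59 for Tnfaip3 (adjusted p = 0.0274), -1.22 for Tnip1 (0.000573), -0.95 for Tnip2 (0.0456) and -1.27 for Zc3h12a (0.00279). The response to IL-4 minus that to IFN-γ was -0.66 for Tnfaip3 (adjusted p = 0.0165) and -1.63 for Zc3h12c (0.0451). The response to IL-4 minus that to IFN-γ and E. coli was -1.79 for Tnfaip3 (adjusted p = 2.73e-07), -1.46 for Tnip1 (5.69e-05), -1.10 for Tnip2 (0.0181), -0.79 for Zfp36l1 (0.00616), -1.39 for Zc3h12a (0.000877) and -3.16 for Zc3h12c (0.000166). IL-4 has its own file layout, whose part in these differences was not tested.

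Without library e, Tnfaip3 and Tnip2 no longer passed in the comparison of IL-4 with E. coli (-0.54 and -0.85, adjusted p = 0.0581 and 0.0821), and the other 10 differences between responses still passed. In fits that left out 1 library, with adjusted p in brackets and joint meaning IFN-γ with E. coli, the call of Tnfaip3 against E. coli was lost in 6 of 18, without E. coli 1 (0.0555), E. coli 3 (0.0597), IL-4 2 (0.0548), a (0.0993), b (0.0522) or e (0.0581). That of Tnip2 was lost in 9 of 18, without E. coli 2 (0.0626), E. coli 3 (0.132), IFN-γ 1 (0.0522), IL-4 2 (0.109), a (0.0622), b (0.0966), c (0.0746), e (0.0821) or f (0.0547). Against IFN-γ, Tnfaip3 lost its call in 2 of 18, without IFN-γ 3 (0.0513) or a (0.0638), and Zc3h12c in 10 of 18, without E. coli 3 (0.0506), IFN-γ 2 (0.102), IFN-γ 3 (0.0609), joint 2 (0.0529), IL-4 1 (0.0524), IL-4 3 (0.0797), a (0.110), b (0.0789), d (0.0707) or f (0.0961). With DESeq2 Tnip2 against E. coli (0.0654) and Zc3h12c against IFN-γ (0.0663) were lost. Against both agents, Tnip2 lost its call in 1 of 18, without joint 3 (0.0773).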

How the results depend on the processing

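Over 2037 values of the 10 genes under the alternatives, 1897 kept their direction and side of the threshold, 65 lost a call, 15 gained one and 0 called values reversed (edgeR, and DESeq2 as an alternative). The other 60, not called under either setting, changed sign. Of 981 values of pathway genes, 103 lost a call. DESeq2's size factors shifted the median of all genes by at most 0.03 (log2), and the correction for identifier collisions by at most 0.06.

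A factor of 2 as an added condition removed Tnip2 (0.96) from the genes higher with E. coli. It left 0 of 1 genes lower with E. coli, 2 of 4 higher with both agents against E. coli, 0 of 1 higher and 1 of 3 lower with IFN-γ against E. coli, 0 of 1 for the interaction and 0 of 2 with IL-4, by construction. With DESeq2's size factors the interaction had 0 (unadjusted p under 0.05: 1; DESeq2's own test: 1). DESeq2 gave 3 higher with both agents against E. coli, 1 higher with IL-4, 3 for IL-4 minus E. coli and 1 for IL-4 minus IFN-γ. It called 1582, 641, 2796 and 2575 of all genes in that order, beside 1725, 630, 2995 and 2964 with edgeR. The cause was not tested. Leaving out each library gave 0 to 1 for the interaction, 0 to 2 higher with IL-4, 2 to 5 for IL-4 minus E. coli and 0 to 2 for IL-4 minus IFN-γ. With all libraries 4.62%, 5.97%, 28.1% and 27.8% of all genes were called in that order.

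Among all genes, a factor of 2 left 350 higher and 673 lower with E. coli, 496 and 691 with IFN-γ, 915 and 1295 with both, and 326 and 152 with IL-4, and without the low-count filter 719 were lower with IL-4 in place of 459. The factor of 2 also left 753 higher with both agents against E. coli, 635 higher and 392 lower with IFN-γ against E. coli, and 245 for the interaction. As the replicate numbers need not pair libraries, they were a block only as an alternative: the counts of the 10 genes were unchanged, at 4 higher with both agents against E. coli, 5 against IFN-γ, and 1 higher and 3 lower with IFN-γ against E. coli. With the block, 1836, 740, 1534 and 1216 of all genes were called in that order, beside 1725, 618, 1393 and 1132 without it. Genes over 2000 counts include Zfp36, which has no value there. The correction for identifier collisions was chosen after seeing the data. The fewest counts in a library were 6 for Tnip3 and 4 for Zc3h12c in the 12 libraries, and 3 for Zc3h12c in the other 6. Proteins were not compared, as no table of them was at hand.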

Other observations

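Zfp36l2 stood out between the file layouts: its group means were 297 ± 30.8 CPM (SD, n = 3) in unstimulated a to c and 12.8 ± 1.26 CPM in unstimulated d to f. Zfp36 was at 543 ± 63 and 505 ± 128 CPM, and Rc3h1 at 37.1 ± 2.74 and 29.1 ± 7.82 CPM, in the same groups. The layouts may not count in one unit, so this difference between unstimulated cells was not tested.

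Between the single agents, 14 of the 20 tested target mRNAs were lower and 1 was higher with IFN-γ than with E. coli, with a median of -1.21 on the log2 scale beside -0.02 for all genes, of which 11.5% were lower and 14.1% higher. Against IFN-γ alone, both agents together gave 16 higher and 1 lower of the 20 (median 1.88, all genes 0.01), beside 6.25% higher and 5.98% lower of all genes. These comparisons share the libraries with IFN-γ.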
